A study of Gallus gallus with 4 samples.

Results

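Very long genes are described here: genes of the chick whose annotated exons lie far apart, so that the gene covers at least 300000 bases of the genome although its exons add up to far less. The span of a gene was the end of its last exon part minus the start of its first. Exon parts, the units that were counted, are the pieces into which all annotated exon boundaries divide the exons of a gene. Of 24513 gene identifiers, 145 had such a span. Of these, 40 on the Z, W or mitochondrial chromosomes and 4 combined identifiers, which join overlapping genes, were set aside. A further 3 were set aside because the authors' deposited list of exons changed by alcohol contains them. This left 98 genes with 2696 of the 220717 exon parts in the table. The members were thus chosen by their annotated span and, through the list, by the authors' measured exon counts after alcohol and saline. Since that contrast was used, every alcohol value of these genes is a description and carries no test.

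The samples were cranial headfolds, the rising folds of the future brain with the neural crest at their edges, of Special black chick embryos at Hamburger-Hamilton stage 8-9. Embryos incubated for 27 hr received 0.43 mmol ethanol, described in the study's methods as 52 mM alcohol for 90 min, or isotonic saline, and headfolds were taken 6 hr after the exposure began and pooled, 23 at a time. Poly-T selected mRNA was sequenced in 2 alcohol lanes (lanes 5 and 6 of a run) and 2 saline lanes (lanes 6 and 7 of another run). Treatment and sequencing run therefore cannot be told apart, and the labels tell apart only lanes. The study describes the columns of each treatment as both pooled samples of that group, which leaves unclear if the saline lanes hold separate pools. The lanes held 15388474 and 16991925 counts after alcohol and 20951322 and 20861872 counts after saline, of which the mitochondrial genome took 33.3% and 32.9%, against 44.2% and 44.2%. The saline lanes differed by little more than sampling noise (chi-square per degree of freedom 1.04 over 16862 genes, under a limit of 1.1) and were counted as 1 library in the fits. For the alcohol lanes the same value was 5.68 over 16910 genes, and each was kept as a library. The spread in these fits thus rests on the 2 alcohol lanes and may be technical, and an alternative took every lane as its own library. The identifiers could not be matched to gene names here, so the labelled tissue was not checked against markers, and genes are given by their place on Gallus gallus 5.0.

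In vertebrates the span of a gene is set mostly by its introns, which RNA polymerase copies in full and the spliceosome then removes. A transcript of a very long gene thus takes much longer to complete than that of a compact gene, while the spliced mRNA can be of ordinary length. In mammals many genes of this kind encode cell adhesion molecules, receptors and ion channels of the nervous system. Which of the 98 chick genes belong to such classes was not determined, since no names were used.

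The 98 genes were long through their introns. Their median span was 366694 bases (300213 to 996094), against 4896 bases in the 21581 shorter genes that met the same conditions. The exon parts added up to a median of 3747 bases (415 to 16301), against 1347 bases in the shorter genes. Exons thus made up 0.976% of the span at the median in very long genes and 29.3% in shorter genes. The very long genes had 22 exon parts at the median (3 to 104), and the shorter genes had 5. The longest stretch without an exon reached 100000 bases or more in 60 of the 98 genes and was 323007 bases at most. In 7 genes this single stretch took at least 50% of the span. In its share of the span, the longest gap was alike in both sets, with medians of 28.8% and 30.9%.

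Their place in the genome was uneven. Chromosomes 1 to 5 held 68 of the 98 genes (69.4%), against 35.9% of all genes that met the same conditions. Chromosome 2 held 22 of them and chromosome 1 held 20, while chromosomes 10, 11, 20 and 27 held 1 each. Chicken chromosomes fall into a few large ones and many small, gene-dense ones with short introns. The plus strand carried 52 of the genes and the minus strand 46. Other gene identifiers, 118 in all, lay wholly inside the span of 51 of the 98 genes. The authors counted without regard to strand, so where exons of such genes lie on opposite strands the reads could not be told apart by strand.

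The 5 longest genes showed how different such genes can be. The longest lay on chromosome 1 (114486908 to 115483002, 996094 bases) with 80 exon parts that add up to 13623 bases. It had 2074 and 2018 counts in the alcohol lanes, against 1817 and 1807 counts in the saline lanes. A single exon part held 92.1% of its counts, and the exon parts with at least 10 counts lay within 58996 bases, a small part of the annotated gene. The next longest, on chromosome 8 (22774073 to 23612126), was hardly detected, with 2 and 2 counts after alcohol and 1 and 3 counts after saline. A gene on chromosome 3 (44611057 to 45288689) was also low, with 4 and 7 counts against 8 and 9 counts. By contrast, the gene on chromosome 19 (1327382 to 1987436) was read along its whole length, since its exon parts with at least 10 counts spanned all 660054 bases. It had 1975 and 2284 counts after alcohol and 1775 and 1802 counts after saline. The remaining one, on chromosome 2 (77650257 to 78277058), had 486 and 511 counts against 405 and 388 counts.

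How much of the annotated span was seen in the reads varied as widely among the others. Of the 98 genes, 65 had at least 100 counts over the 4 lanes and 28 had at least 1000. In the 65 genes, the parts that reached 10 counts stretched over a median of 257321 bases, and in 41 of them over at least 50% of the span. In 9 of the 65 they covered under 10% of it. In these 9 genes, each exon part outside that stretch had under 10 counts. This does not show that the reads were confined to a compact region, since the limit of 10 counts weighs more at low depth. Where just 1 part reached 10 counts, it held 94.4%, 90.2% and 53.2% of the gene's counts. Of all 2696 exon parts, 955 had no count in any lane and 645 had at least 10. The median gene of the 65 had 48.3% of its counts in 1 exon part.

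**Figure D1:**
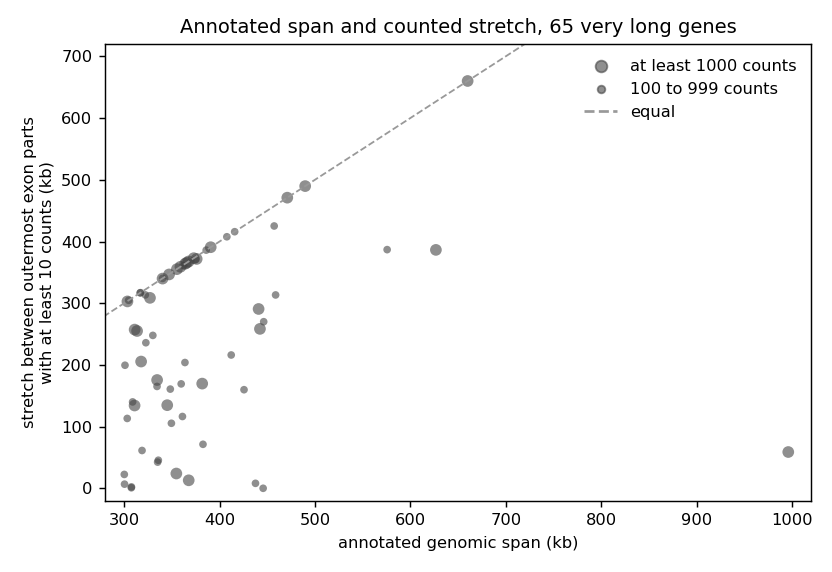
Stretch between the outermost exon parts that reached 10 counts in the sum of the 4 lanes (y axis, kb) against the annotated genomic span (x axis, kb) for the 65 very long genes with at least 100 counts. Large points have at least 1000 counts, and the dashed line marks equal lengths. The longest gene, at 996094 bases, was counted over 58996 bases, while the gene of 660054 bases was counted over its whole span.

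Counts gathered at the 3' end. When the exon parts of each of the 65 genes were divided into 5 bins by their order from the 5' end, the last bin held 63.1% and 63.1% of a gene's counts on average in the alcohol lanes, against 67.0% and 65.9% in the saline lanes. The first bin held 7.17% and 7.97% in the alcohol lanes, against 7.22% and 8.26% in the saline lanes. The 8275 shorter genes in the same range of counts, with at least 100 counts and 5 exon parts, had less in the last bin on average. Their means were 56.5% and 56.0% after alcohol and 60.1% and 60.1% after saline. The medians were closer, 60.9% and 60.3% after alcohol and 66.7% and 66.7% after saline. In the very long genes the medians were 63.6% and 61.0%, and 67.9% and 67.1%. The share of the last bin was thus lower in the alcohol lanes in both sets. A last exon is often long, and with 5 bins of exonic length in place of exon part order the median share in the last bin, averaged over the lanes, was 52.9% where it had been 64.9%. On that basis the mean shares of the last bin were 45.3% and 45.3% after alcohol and 48.3% and 47.5% after saline, while the medians of the lanes overlapped between the groups. On average, the last bin of a very long gene thus held the largest share of its counts. That share was 63.1% to 67.0% by exon part order and 45.3% to 48.3% by exonic length.

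**Figure D2:**
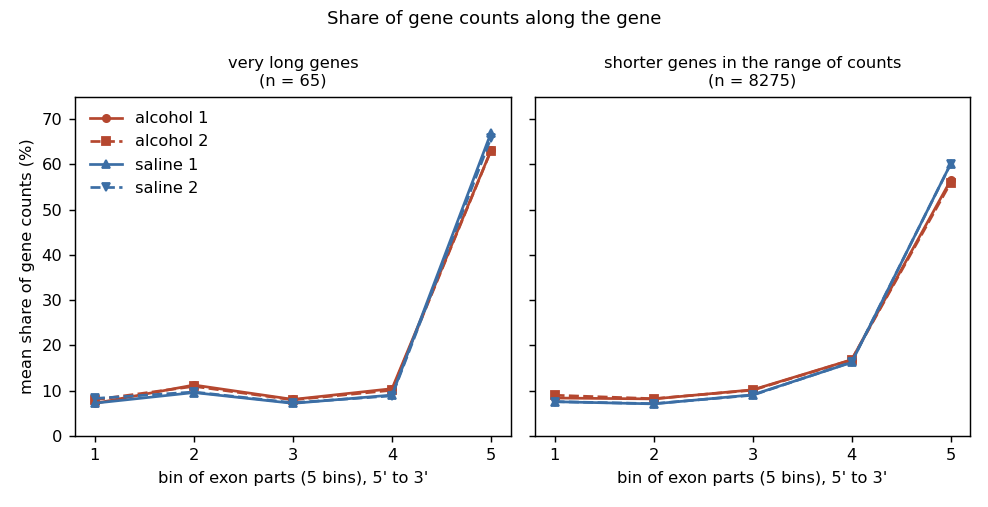
Mean share of a gene's counts (y axis, %) by bin of its exon parts (5 bins) in order from the 5' to the 3' end (x axis), for 65 very long genes (left) and 8275 shorter genes with counts in the same range (right). Each line is a lane, and in both panels the last bin held more than 50% of the counts and was lower in the alcohol lanes, at 63.1% and 63.1% against 67.0% and 65.9% in very long genes.

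As a group, the very long genes were detected more often than shorter genes but at a lower level per length. Only 1 of the 98 had no count in any lane, against 12.2% of the shorter genes. A lane's floor of 3 counts was 0.195 and 0.177 CPM after alcohol and 0.143 and 0.144 CPM after saline, by library size. At least 10 counts were reached by 88 of them (89.8%), against 72.8% of the shorter genes. The 10 genes that missed this filter had 4 counts or fewer in each lane, and the filter passes a low gene more easily when it is high in one group. Per kilobase of exon, the 88 genes had a median level of 1.45 CPM (counts per 1000000 counts of the lane, after TMM scaling) after alcohol and 1.01 CPM after saline. The shorter genes that passed had 4.27 and 3.85 CPM per kilobase. The very long genes spread over a wide range, with 23 of the 88 under 1 CPM and 30 over 10 CPM in saline.

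A few genes held most of the counts. The 6 most abundant held 62.8% of all counts of the 98 genes, and the first of them alone held 31.8%. This gene lies on chromosome 10 (7176016 to 7516317, minus strand, 26 exon parts). It had a level of 867 and 765 CPM in the alcohol lanes, against 627 and 619 CPM in the saline lanes, and the groups did not overlap. The log2 change of its level was 0.39 (standard error 0.13), called by edgeR but not by DESeq2 (0.37). It was 0.06 and not called in a fit of exon parts beyond 1000 bases of the 3' end. By their midpoints, all exon parts of this gene lie beyond that distance, so the same counts entered both fits. The fit beyond 1000 bases was scaled on its own counts, so the lower value shows no change along the gene. Of its counts, 94.2% fell on 1 exon part of 2289 bases near the 3' end (7349303 to 7351591), with 14020 and 13665 counts after alcohol and 11125 and 10926 counts after saline.

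The other 5 abundant genes differed in their response. A gene on chromosome 8 (17407355 to 17789217) had 299 and 276 CPM after alcohol and 230.1 and 232 CPM after saline, a log2 change of 0.31 (standard error 0.14) that was not called. It was -0.019 in the separately scaled fit of exon parts beyond 1000 bases of the 3' end. A gene on chromosome 14 (3530847 to 3889914) had 149.5 and 142 CPM, against 97.0 and 100.1 CPM in saline, and was called higher with a log2 change of 0.56 (standard error 0.15). In the fit beyond 1000 bases the change was 0.23 and not called. The gene on chromosome 6 (8746641 to 9091849) had 112 and 107 CPM after alcohol and 109 and 104 CPM after saline. Its groups overlapped, and the log2 change was 0.03 (standard error 0.15). The last 2 are the longest gene on chromosome 1, with 119.7 and 105 CPM after alcohol and 98.0 and 97.8 CPM after saline, and the gene on chromosome 19, with 114 and 119 CPM against 95.8 and 97.5 CPM. Their log2 changes of 0.19 and 0.26 (standard errors 0.15 and 0.15) did not pass, and in the fit beyond 1000 bases they were -0.14 and -0.50. The genes on chromosomes 1, 8 and 14 had too few counts within 1000 bases of the 3' end to be fitted there. Nearly the same counts of these genes thus entered both fits, so their lower values beyond 1000 bases show no change along the gene.

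**Figure D3:**
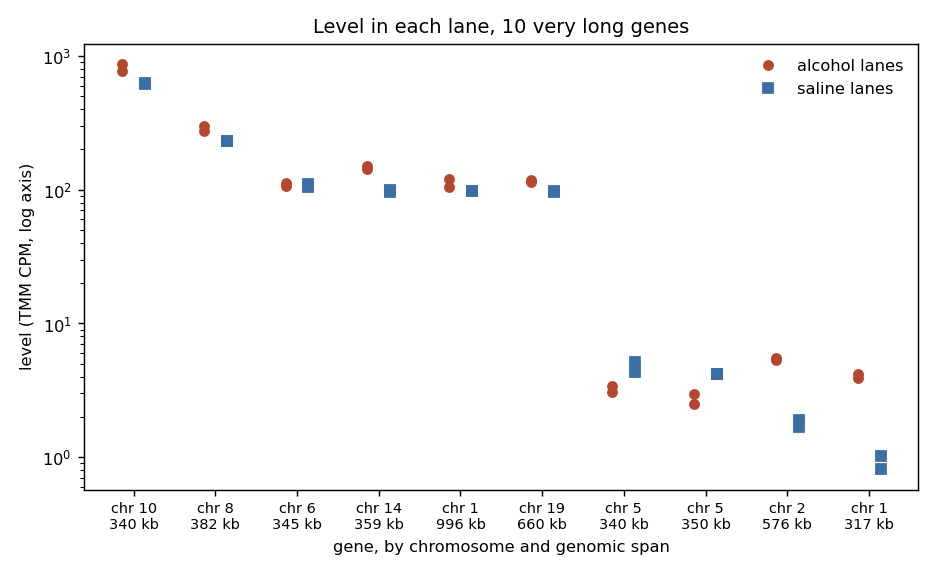
Level in each lane (y axis, TMM-scaled CPM on a log axis) of 10 very long genes: the 6 most abundant and, at the right, the 2 with the largest falls and the 2 with the largest rises among genes with at least 100 counts. Circles are alcohol lanes and squares are saline lanes, and the lanes of the groups overlap only for the gene on chromosome 6.

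In edgeR's quasi-likelihood test over all 18093 genes with at least 10 counts, at a false discovery rate of 0.1, 36 of the 88 very long genes were higher after alcohol and 2 were lower. Over all genes tested, 15.6% were called higher and 11.7% lower. In the next shorter classes of span, given below, the shares called higher were 33.1% and 31.6%. The rule had left out genes by this same contrast, so nothing is read from the counts. In pooled tissue, fewer cells of a type and less RNA per cell cannot be told apart. The median log2 change of the 88 genes was 0.53, with an interquartile range of 0.12 to 0.91, and the median of all genes tested was 0.01. The change was above 0 in 75 of the 88 genes. Both alcohol lanes lay above both saline lanes in 60 genes and below them in 7, where all genes tested gave 35.5% and 33.3%. The very long genes also took more of all counts outside the mitochondrial genome, 0.442% and 0.417% in the alcohol lanes, against 0.315% and 0.313% in the saline lanes. Without the most abundant gene, these shares were 0.296% and 0.287%, against 0.215% and 0.215%. The 3 listed genes of this span, which were set aside, all had positive changes with a median of 0.29, and 1 of them was called.

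The genes were far from uniform. Log2 changes of the 88 genes lay between -0.70 and 2.12, with 18 genes at least 2-fold higher, none at least 2-fold lower, and 19 within 0.2 of 0. Part of this width came with low counts, since the median standard error was 0.57 in genes under 100 counts and 0.20 in the 65 genes with more. In these 65 genes alone, the median log2 change was 0.45, with 29 called higher and 2 lower, where all genes with at least 100 counts gave 18% and 14.2%. The largest rise among them was that of ENSGALG00000039403 on chromosome 1 (20929341 to 21246163), with 4.16 and 3.89 CPM after alcohol and 1.03 and 0.812 CPM after saline (log2 change 2.12, standard error 0.30). ENSGALG00000030054 on chromosome 2 (8821485 to 9397176) had 5.54 and 5.30 CPM, against 1.67 and 1.89 CPM in saline (1.60, standard error 0.26). In both genes every alcohol lane exceeded the saline lanes by more than 2-fold.

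The only genes called lower both lay on chromosome 5. ENSGALG00000027255 (40155940 to 40505519) had 2.94 and 2.49 CPM after alcohol and 4.15 and 4.17 CPM after saline, a log2 change of -0.62 (standard error 0.24). ENSGALG00000009491 (28406954 to 28747300) had 3.41 and 3.06 CPM, against 5.13 and 4.33 CPM in saline, a log2 change of -0.55 (standard error 0.23). Their lanes did not overlap between the groups either. With DESeq2 in place of edgeR, 0 of the very long genes were called lower (0 at an unadjusted p-value under 0.05) and 15 higher, where all genes gave 4.26% lower and 5.39% higher. Without saline lane 6 the counts were 29 higher and 0 lower, where all genes gave 14% and 11%. Without saline lane 7 they were 32 and 1, where all genes gave 13.5% and 9.83%. With every lane as its own library they were 47 and 3, where all genes gave 22.8% and 20%. Scaled by library size alone, where the median of all genes tested was 0.36, 63 were called higher and 0 lower, and all genes gave 7223 and 603 calls (39.9% and 3.33%) in place of 2823 and 2110. Scaled by counts outside the mitochondrial genome, where that median was 0.10, 43 were higher and 0 lower, and all genes gave 3411 and 1313 (18.9% and 7.26%).

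At the limit of 300000 bases, the nearest genes differed in level on both sides. Just inside, a gene on chromosome 9 (300213 bases) had 113 and 135 counts after alcohol and 113 and 108 counts after saline, with a log2 change of 0.18. In the separately scaled fit beyond 1000 bases of the 3' end its log2 change was -0.19. The next, on chromosome 5 (300455 bases), had 1 and 0 counts after alcohol and 0 and 0 counts after saline and was not tested. Just outside, a gene on chromosome 2 (299162 bases) had 706 and 679 counts against 645 and 654 counts (0.11), and a gene on chromosome 6 (298341 bases) had 133 and 116 counts against 85 and 84 counts (0.58).

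Set beside shorter genes, the median change was larger in each longer class of span. The median log2 change was -0.05 in 12791 genes under 30000 bases, 0.27 in 2225 genes of 30000 to 100000 bases and 0.36 in 703 genes of 100000 to 300000 bases. It was 0.52 in the 78 genes of 300000 to 500000 bases and 1.06 in the 10 longer ones. These 10 had a median of only 51 counts. Calls higher made up 40.9% of the very long genes, 33.1% of genes of 100000 to 300000 bases and 31.6% of genes of 30000 to 100000 bases. In genes under 30000 bases they made up 11.7%. Calls lower made up 2.27%, 1.56%, 2.83% and 13.4% in the same order. The larger share called higher was thus not particular to very long genes. The interquartile ranges of neighbouring classes overlapped throughout, so a single gene's change could not be told from its span.

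**Figure D4:**
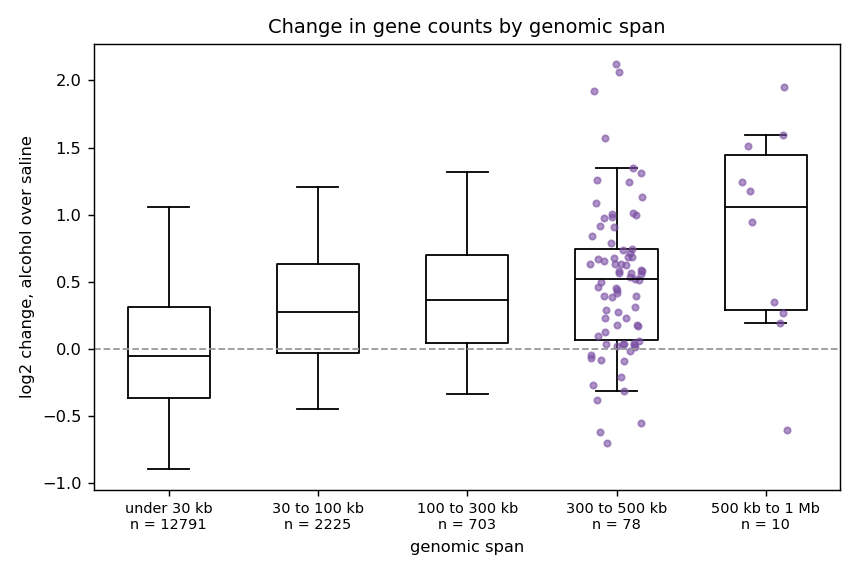
Log2 change of gene counts, alcohol over saline (y axis), by class of genomic span (x axis). Boxes give the median and interquartile range and whiskers the 5 to 95 percentiles over genes, and each point in the 2 longest classes is a very long gene. The medians are -0.05, 0.27, 0.36, 0.52 and 1.06 in order of span, with wide overlap between neighbouring classes.

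Among genes of similar counts, very long genes had the highest median in each range, but not always the largest share called higher. The 88 genes were divided into 4 equal groups by their counts, 22 genes each, and shorter genes were placed in the same ranges. From 13 to 87 counts, the median log2 change was 0.93 in very long genes, against 0.51 in genes of 100000 to 300000 bases and 0.01 in genes under 30000 bases. From 88 to 342 counts these medians were 0.57, 0.47 and 0.02. From 343 to 1212 counts they were 0.45, 0.35 and -0.02. In the most abundant range they were 0.39, 0.20 and -0.11. Genes of 30000 to 100000 bases had medians of 0.49 and 0.38 at 88 to 342 and 343 to 1212 counts, above those of 100000 to 300000 bases, so the classes did not follow the order of span throughout. At 88 to 342 counts, 36.4% of the very long genes were called higher. The next shorter classes had 39.2% and 39.6%. Changes above 0 made up 77.3%, 85.1% and 78.2% in the same order. Both alcohol lanes lay above both saline lanes in 59.1%, 69.6% and 66.1%, and at 343 to 1212 counts in 63.6%, 68.3% and 68.9%. Calls lower at 88 to 342 counts numbered 2 of 22, 2 of 181 and 6 of 386. Outside 88 to 342 counts, the shares called higher and above 0 were largest in the very long genes. The low range is the one where the filter favours genes that are high in one group.

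**Figure D5:**
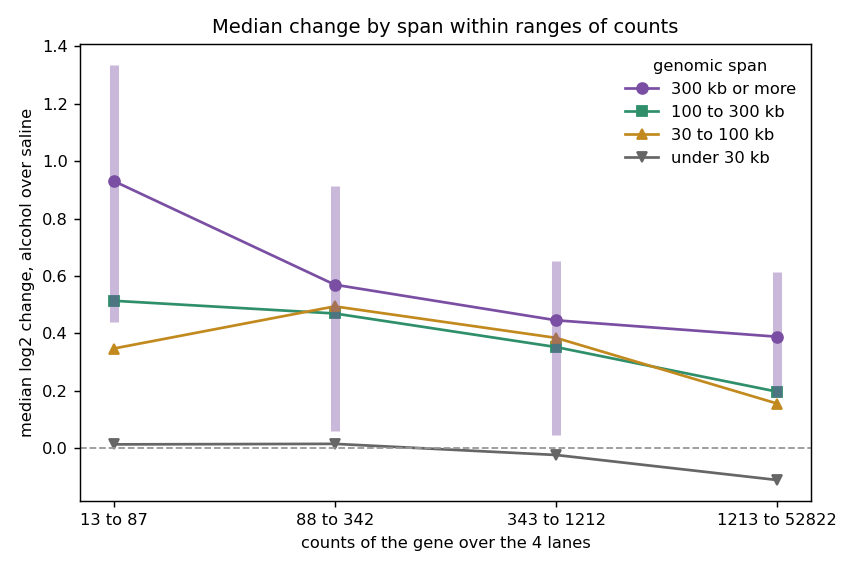
Median log2 change, alcohol over saline (y axis), of genes in 4 classes of span (lines) within 4 ranges of counts over the lanes (x axis). Bars give the interquartile range of the 22 very long genes in each range. The very long genes lie highest in each range, between 0.39 and 0.93, and the genes under 30000 bases lie between -0.11 and 0.02.

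Other properties moved with span. Tested genes under 30000 bases had a median of 6 exon parts and 1473 bases of exon, and the very long genes had 23 and 3923. Within a band of exonic length from 2800.5 to 5790.5 bases, the interquartile range of the very long genes, the medians were 0.56 in 44 very long genes, 0.38 in 285 genes of 100000 to 300000 bases, 0.30 in 854 genes of 30000 to 100000 bases and 0.06 in 1763 genes under 30000 bases. The order by span was therefore also present at like exonic length, where the number of exon parts still differed (medians of 23, 21, 21 and 12), as did the counts (medians of 222.5, 750.0, 1157.5 and 1569). The share of counts in the last bin and the mitochondrial share differed between the groups as given above. Their part in the result was not tested.

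Counts near the 3' end and farther from it were then fitted separately, a choice made after seeing the data. Exon parts were placed by their midpoints. A long last part, such as that of 4673 bases in the gene on chromosome 10, thus fell whole into the farther set. The farther set therefore holds some 3' ends. With only exon parts within 1000 exonic bases of the 3' end, the median log2 change was 0.48 in 70 very long genes and 0.02 in 14214 shorter genes, and 24 very long genes were called higher and 0 lower, where all genes gave 14.4% and 9.79%. With only exon parts farther away, it was 0.26 in 80 very long genes and 0.01 in 9352 shorter genes. There, 14 very long genes were called higher and 3 lower, where all genes gave 11.8% and 11.5%. The median of the very long genes was thus above that of shorter genes in both sets of exon parts. Each fit was scaled on its own counts, over sets of genes that only partly coincide. The medians of 0.48 and 0.26 therefore cannot be set against each other. On the same log2 scale, genes of 100000 to 300000 bases had medians of 0.34 near the 3' end and 0.28 farther away. The very long genes were thus above this class near the 3' end and below it farther away. Farther away, 19.5% of this class were called higher, against 17.5% of the very long genes.

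Within very long genes, single exon parts had median abundance changes on the log2 scale of 0.35, 0.49, 0.62, 0.47 and 0.18 in order of the 5 bins of the gene, 5' to 3'. In shorter genes the same medians were 0.22, 0.25, 0.18, 0.04 and -0.20. The last bin was lowest in both sets, and each median of the very long genes was above its counterpart. Exon parts were fitted apart from genes and scaled on their own counts. In that fit, the part with 94.2% of the counts of the gene on chromosome 10 had 0.11, where the gene had 0.39. These medians therefore cannot be set against the gene changes, and a value below 0 need not be a fall.

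Exon usage sets each exon part against its gene. In edgeR, the change of the whole gene, which includes that part, is taken off the part's own change. Exon usage could be tested in 636 exon parts of 69 very long genes, with edgeR over 94274 exon parts at a false discovery rate of 0.1. Of the 636, 18 were used more after alcohol and 6 less, in 14 genes, where all exon parts gave 4.36% and 0.511%. In the DEXSeq model fitted with DESeq2, 1 iteration of the dispersion estimate gave 0 calls over all exon parts. With 10 iterations, adopted after that was seen, the counts were 19 and 7, where all exon parts gave 4.62% and 1.55%. In edgeR they were 7 and 2 without saline lane 6, where all exon parts gave 2.2% and 0.27%, and 4 and 2 without saline lane 7, where they gave 2.01% and 0.247%. With every lane as its own library they were 35 and 15, where all exon parts gave 8.13% and 1.55%. The median log2 change in usage was 0.15, against 0.21 over all exon parts tested. Since the rule left out genes with a listed exon, these counts describe what remained after that choice. The abundant gene on chromosome 8 held 6 of the exon parts used more and the most abundant gene on chromosome 10 held 4.

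In the gene on chromosome 10, the exon part with 94.2% of the counts had a usage change of -0.04. This part dominates the whole-gene change it is set against, so the value does not show that it kept pace with the other parts. Its own log2 abundance change was 0.11, against 0.85 in the part at 7365061 to 7365267. Of the parts tested, only that at 7458707 to 7461095 was lower, at -0.44. Upstream of the dominant part, 4 parts were used more. One of them (7365061 to 7365267) had 258 and 284 counts after alcohol, against 128 and 128 after saline, a log2 usage change of 0.71 (standard error 0.22). On chromosome 8, an exon part of 801 bases (17502144 to 17502944) had 320.0 and 373 counts, against 146 and 128, and its usage change was 1.04 (standard error 0.21). The part on chromosome 10 lies upstream of the exon part that dominates its gene, and the part on chromosome 8 lies in bin 2 of 5. The gene on chromosome 19 moved the other way, with its first exon part and one in its second bin used less. Its exon part at 1350349 to 1350826 had 167 and 284 counts after alcohol and 301 and 323 counts after saline (log2 usage change -0.73, standard error 0.21). The alcohol lanes of this part differed by more than its saline lanes, and both lay below them. In the separately scaled fits, this gene had a log2 change of -0.50 beyond 1000 bases of the 3' end and 0.61 within them. Since each fit was scaled on its own counts, these 2 values cannot be set against each other.

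Lanes of the same treatment gave the size of differences within a group. Lane 6 over lane 5 of the alcohol group had a median log2 difference of -0.05 in the 88 very long genes and 0.02 in 15280 shorter genes in their range of counts. The 2 saline lanes (lane 7 over lane 6) differed by a median of 0.01 in very long genes. Each single pair of an alcohol lane over a saline lane had a median of 0.47, 0.48, 0.54 or 0.51 in the very long genes. In the very long genes, the chi-square per degree of freedom was 2.92 between the alcohol lanes (85 genes) and 0.983 between the saline lanes (79 genes).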

How the data were processed

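Per the labels and the study's methods, reads (poly-T selected mRNA, random hexamer priming) were trimmed and aligned with Bowtie2 to Gallus gallus 5.0. The authors deposited raw counts per exon part, made with featureCounts 1.5.2 per the file headers, for read pairs with both ends mapped and without regard to strand. The authors' deposited exon list (exons with an adjusted p-value below 0.1 in DEXSeq) also holds normalized counts, usage coefficients and log2 fold changes. Only its identifiers were used, to leave out listed genes. Unused per-sample columns of other series numbered 0.

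Counts were summed per gene and tested with edgeR 4.0.16 in R 4.3.3 (TMM, quasi-likelihood, at least 10 counts over the libraries, Benjamini-Hochberg over all genes, false discovery rate 0.1). Standard errors are the log2 change divided by the square root of the F statistic. Exon usage was tested with edgeR's diffSpliceDGE on exon parts with at least 10 counts in genes with at least 2 of them. Lanes of a group were summed where the chi-square per degree of freedom was under 1.1. DESeq2 1.42.0, other scalings and filters, and leaving out each lane were alternatives. Tables were handled with data.table (1.17.8), pandas 2.3.3 and numpy 2.4.6 in Python 3.11.15, and plots were made with matplotlib 3.10.9. The fits were also run on simulated counts with large known changes and a fixed spread, in features with at least 100 counts. That setting differs from these data, so it does not measure how well smaller changes or lower counts are called. Counting error alone sets the floor of 3 counts per lane.

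Genes and lists were chosen with earlier results of these data known. Described genes were the 5 with the longest span, the 6 with the most counts, the 2 on each side of the span limit, and 2 identifiers that rose and 2 that fell most among genes with at least 100 counts. Identifiers were not matched to names (a gene table of a later assembly shared 0 identifiers), so prepared lists of genes by role and of tissue markers were not used here.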

Additional observations from a re-analysis of the deposited data

How the results depend on the processing

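The median log2 change of the very long genes was positive under every alternative run. It was 0.88 with library size alone (all genes 0.36), 0.62 with library size outside the mitochondrial genome, 0.46 with at least 50 counts and 1.06 for spans of at least 500000 bases. It was 0.48 within 1000 bases of the 3' end and 0.26 beyond (chosen after seeing the data, each fit scaled on its own counts). Without single lanes it was 0.46 to 0.51. The 36 genes called higher became 63 with library size alone, 15 with DESeq2, 14 beyond 1000 bases and 3 of the 10 tested for the longer spans. Without a saline lane they were 29 to 32. The 2 called lower became 0 for the longer spans, with library size alone or outside the mitochondrial genome, with DESeq2 and within 1000 bases, and 0 to 1 without a saline lane. For the longer spans this follows from the limit, since both genes are shorter than 500000 bases. At an unadjusted p-value under 0.05, these counts of 0 were 0, 0, 1, 0 and 1 in that order, and 1 without saline lane 6. Without an alcohol lane, 1 library a group was left, which gave values with no test. The gene on chromosome 19 at 1327382 had a log2 change of -0.50 beyond 1000 bases, and 0.26 over all its exon parts. Of the uncalled genes described, those on chromosomes 1, 8 and 9 were also below 0 there, at -0.14, -0.019 and -0.19. That fit was scaled on its own counts, and the genes on chromosomes 1 and 8 kept nearly all their counts in it. Their signs therefore show no change along the gene. The gene on chromosome 10, with the same counts in both fits, had 0.39 over all its exon parts and 0.06 there. For the genes on chromosomes 9 and 19, which had 0.18 and 0.26 over all exon parts, the part of the scaling was not tested.

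For exon usage, the 18 parts used more became 35 with each lane as its own library, 6 with no filter beyond 1 count, 0 for the longer spans and 0 with DESeq2 at 1 iteration. Without a saline lane they were 4 to 7. The 6 used less became 15 with each lane as its own library, 2 for the longer spans, 0 with DESeq2 at 1 iteration and 2 without either saline lane. At an unadjusted p-value under 0.05, DESeq2 at 1 iteration had 18 parts more and 3 less, and edgeR had 4 more for the longer spans. The median usage change of 0.15 was 0.25 for the longer spans, 0.18 with listed genes kept in, 0.29 with no filter beyond 1 count, 0.075 with at least 50 counts, 0.17 with DESeq2 at 1 iteration, 0.18 at 10 iterations (chosen after seeing the data) and 0.081 to 0.18 without single lanes. The difference between the alcohol lanes was -0.054 with TMM and -0.044 with library size alone, and the share in the last of 5 bins was 52.9% by exonic length in place of 64.9%. The cause of these moves was not tested. No paired analysis was possible because the replicate numbers only follow the order of the samples and pair no lanes. Depth limits the genes under 100 counts most.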
